A study of Mus musculus with 12 samples.

Results

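The miR-23, miR-27 and miR-24 clusters are 2 copies of one arrangement of 3 miRNA hairpins, followed here through the small RNAs bound to AGO2 in mouse embryonic stem cells. Entries named mmu-miR-23a, mmu-miR-23b, mmu-miR-27a, mmu-miR-27b or mmu-miR-24, with any star or copy number, were taken from the table, which gave 9 of its 689 entries. They were 5 unstarred arms and 4 star arms (miR-27a*, miR-27b*, miR-24-1* and miR-24-2*), where the star marks the strand of a hairpin that was found less often when it was named.

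All cells were embryonic stem cells grown on gelatin with leukemia inhibitory factor, and all carried a HA- and FLAG-tagged AGO2 that doxycycline switches on, so that the control cells carried the transgene too. The 4 groups of 3 libraries were the nuclear fraction with doxycycline (2.5 ug/ml for 15 h before harvest), the nuclear fraction without it, the Total fraction with doxycycline and the Total fraction without it. RNA was taken with the anti-FLAG M2 antibody. The protocol speaks of a cytoplasmic fraction where the sample labels say Total, and whether that fraction held nuclei was not tested. The labels give no other allele and no clone for these cells. The authors deposited 1 mean read count per entry and group, so no difference below has a replicate check, and every interval is a 95% interval for counting error only.

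A miRNA hairpin is cut into a short duplex, and Argonaute keeps 1 strand as a guide while the other, the star strand, is usually lost. The guide finds target RNAs mainly through its seed, bases 2 to 8. In mouse, miR-23 and miR-27 are known for roles in blood vessel growth and in T cells, and miR-27 restrains the making of fat cells. miR-24 is known from human blood cell lines to lower the histone variant H2AX. In embryonic stem cells, miR-27a and miR-24 have been studied as miRNAs that act against self-renewal.

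The arms are shown with the seed in capitals to show where paralogues share it and where they do not. RefSeq's table for GRCm38.p6, the assembly behind the mm10 build that the submitters name, held the mature sequence of 8 of the 9 arms.
miR-23a: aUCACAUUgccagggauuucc
miR-27a: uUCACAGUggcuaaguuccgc
miR-27b: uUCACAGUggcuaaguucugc
miR-24: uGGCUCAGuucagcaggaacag
miR-27a*: aGGGCUUAgcugcuugugagca
miR-27b*: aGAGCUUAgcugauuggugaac
miR-24-1*: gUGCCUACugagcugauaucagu
miR-24-2*: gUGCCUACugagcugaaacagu
Counted from the 5′ end, miR-27a and miR-27b shared their seed and differed by 1 base of 21, C19U. The seed of miR-27 was held by no other of 1679 mature mouse miRNAs in that table. miR-24 has the same mature sequence from both of its hairpins, so its reads cannot be given to a cluster. The star arms are easier to separate. miR-27a* and miR-27b* differed at 8 of 22 positions, the first of them in the seed (G3A), while miR-24-1* and miR-24-2* shared their seed and differed at 5 of 22, from U17A on.

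On GRCm38 the first cluster lies on the plus strand of chromosome 8. Mir23a spans chr8:84208518-84208592 and Mir27a chr8:84208672-84208758, and neither overlaps another gene of GENCODE vM21. Mir24-2, at chr8:84208815-84208921, overlaps an exon of the long non-coding RNA gene Gm26532. The second cluster lies on the plus strand of chromosome 13 within the protein-coding gene 2010111I01Rik. Mir23b (chr13:63300484-63300557) is in an intron, while Mir27b (chr13:63300712-63300784) and Mir24-1 (chr13:63301208-63301275) overlap exons of at least 1 of its transcripts. Both Mir24 hairpins also overlap a Mir3074 hairpin on the other strand, and whether strand was used in counting is not given in the sources used here.

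**Figure D1:**
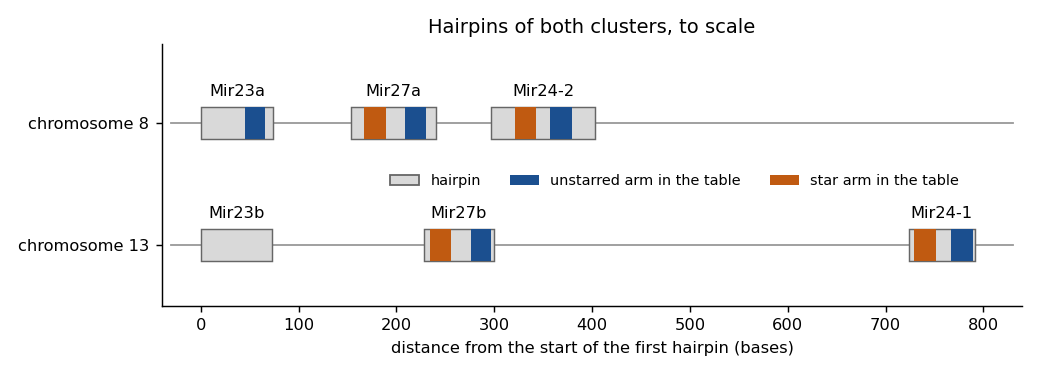
Hairpins of both clusters drawn to scale along the chromosome, in bases from the start of the first hairpin, with the unstarred (blue) and star (orange) arms placed by RefSeq. The hairpins of the chromosome 8 cluster end 403 bases from its start, those of the chromosome 13 cluster 791 bases.

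The libraries differed in depth. The authors' mean sum of all miRNA reads was 400794 in the nuclear fraction and 539627 in the Total one with doxycycline, and 36329.9 and 16053.4 without it. As markers of the labelled cell type, 22 entries of the miR-290 to miR-295 and miR-302 to miR-367 clusters took 65.8% of nuclear and 68.9% of Total reads with doxycycline, and 14.3% and 32.3% without it, or 39.5% and 48.4% with the abundant entry miR-805 left out of the total. Fibroblast and mesenchymal markers, of cells in which miR-23, miR-27 and miR-24 are also abundant, took 0.102% and 0.131% over 13 entries, of which 1 was at 0 in each. The endothelial marker miR-126 took 0.0556% and 0.0929% over its 2 arms. Without doxycycline the 2 lists took 0.182% and 0.293%, and 0.0284% and 0.0332%. Between the fractions with doxycycline their median log2 folds, nuclear over Total, were -0.38 and -0.66. Of their tested entries, 1 of 6 and none of 2 were at least 2-fold lower, against 3.97% of all 378 tested entries. The part of these 2 lists in the values below was not tested. Blood markers (8 entries, none at 0) held 0.898% and 0.773% of reads in induced cells, and 1.16% and 1.38% in uninduced ones. With miR-805 left out, they held 0.928% and 0.779%, and 3.19% and 2.07%. With doxycycline the list was led by miR-142-5p among nuclear (1915.3 mean reads) and miR-142-3p among Total reads (2733.7). With doxycycline miR-144, miR-155, miR-223 and miR-451 each had at most 12 mean reads in either fraction. Neural markers (7 entries, none at 0) took 0.789% and 0.587%, and 0.447% and 0.750%. With miR-805 left out they took 0.815% and 0.592%, and 1.23% and 1.12%. The neural list was led by miR-124 with 2848.3 and 2682.7 mean reads with doxycycline, and by miR-124* with 109.7 and 76.7 without it. Muscle and liver markers (6 entries) took 0.0133% and 0.0120% with and 0.706% and 0.490% without doxycycline, and were led by the liver miRNA miR-122 with 41.2 and 59 mean reads with and 227.7 and 74.3 without it. These lists moved with doxycycline as well, though the direction for the nuclear neural share depended on miR-805. Their part was likewise not tested. With bulk RNA, fewer cells of a type and less RNA per cell cannot be told apart.

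With doxycycline the clusters formed a small part of the AGO2-bound miRNAs, nearly all of it unstarred. The 9 arms took 1.11% of reads (Wilson interval 1.09 to 1.13) in the nuclear fraction and 1.43% (1.41 to 1.45) in the Total one. The 5 unstarred arms took 1.08% and 1.37%, and the 4 star arms 0.0331% and 0.0558%. Without doxycycline the composition was different. The 9 arms then took 0.827% (0.775 to 0.882) and 1.80% (1.68 to 1.92), of which the star arms alone had 0.325% and 1.07%. The single entry miR-805 took 63.7% of nuclear and 33.3% of Total reads without doxycycline, against 3.27% and 0.833% with it. With it left out, the 9 arms held 1.15% and 1.44% of reads in induced cells and 2.28% and 2.69% in uninduced ones, so that the nuclear share is then higher without induction, and the star arms took 0.894% and 1.61% without doxycycline.

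Each read of a miRNA covers a whole molecule of 21 to 23 bases, so reads of the arms can be set beside each other without a correction for length, although adapter ligation favours some sequences over others. Of the 9 arms mmu-miR-27b, the miR-27 of the chromosome 13 cluster, had the most reads with doxycycline, with a mean of 1407.7 in the nuclear fraction and 2747 in the Total one, against 45.8 and 29 without it. It ranked 34 and 20 among the 689 entries with doxycycline. The chromosome 8 copy, mmu-miR-27a, had 1089.3 and 1813.7, against 48.2 and 39.3. Both forms of miR-27 thus had more reads with doxycycline in each fraction, in libraries that were also deeper.

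The shared arm mmu-miR-24 had 1087.3 nuclear and 1853 Total mean reads with doxycycline, and 38.5 and 22.3 without it. Its level could not be told from that of miR-27a within counting error in either fraction with doxycycline. Next came mmu-miR-23a, with 518.2 and 672.3 against 27.8 and 15.2, and mmu-miR-23b was lowest of the unstarred arms, with 214.2 and 320.7 against 22.2 and 10.2. With doxycycline the order was miR-27b, then miR-27a and miR-24 side by side, then miR-23a and miR-23b, and every other step in it was larger than the counting intervals. Without doxycycline the intervals of miR-27a, miR-27b and miR-24 overlapped from 1 to the next in both fractions.

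The star arms had other profiles. Reads of mmu-miR-27a* were 31.7 nuclear and 146.7 in the Total fraction on average with doxycycline, and 70 and 139 without it, which made it the most abundant of the 9 arms in both groups without doxycycline. miR-27b* had 12.3 and 18 with doxycycline and 17.3 and 14 without it. For both arms, reads with doxycycline were thus near or below those without it. miR-24-2* had 79.2 and 129.7 against 22.8 and 17, in libraries that were also deeper with doxycycline. It was the only star arm with at least 3 times more reads with doxycycline in both fractions. Its scaled log2 folds for doxycycline, given below, were -2.04 and -1.82. miR-24-1* had 9.5 and 6.67 against 7.83 and 2.33, under the minimum mean of 10 reads in every group, and was therefore left out of the scaled folds, in which the other 8 arms were tested.

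**Figure D2:**
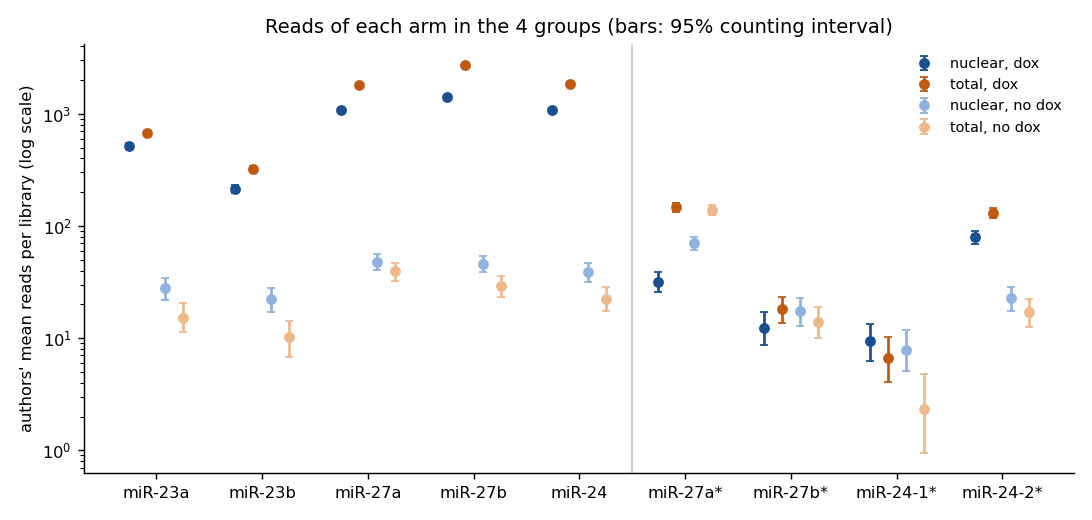
Authors' mean reads per library (log scale) for each of the 9 arms in the 4 groups, with 95% counting intervals. The 5 unstarred arms have more reads with doxycycline (dark), in deeper libraries, than without it (light) in both fractions, while miR-27a* has 146.7 and 139 reads in the Total fraction with and without it.

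The first comparison, between the nuclear and the Total fraction of induced cells, asks whether nuclear AGO2 carries these miRNAs to the same extent. Folds were computed from means scaled with TMM factors, which set the bulk of entries near no change. None of the 8 tested arms was at least 2-fold higher in the nuclear fraction and 1 was lower, miR-27a*, against 10.3% higher and 3.97% lower (14.3% in either direction) among all 378 tested entries. The median log2 fold of the 8 was -0.31, and that of all tested entries -0.05, or -0.46 without scaling. Under every scaling tried and with the lower or higher minimum count, miR-27a* was the 1 arm past 2-fold.

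The unstarred arms lay close together. miR-27b was lowest at a log2 fold of -0.55 (-0.61 to -0.50), which is 0.512 nuclear reads for each Total read before scaling. miR-24 was at -0.36 (-0.42 to -0.30), miR-27a at -0.33 (-0.39 to -0.26) and miR-23b at -0.17 (-0.32 to -0.03). miR-23a was at 0.03 (-0.06 to 0.13), and its sign depended on the scaling (-0.38 without any). The miR-27 and miR-24 arms were lower in the nuclear fraction under each scaling tried, miR-27b between -0.96 and -0.45.

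miR-27a* was at -1.80 (-2.14 to -1.48), the lowest of all 378 tested entries. The next lowest, named after their values were seen, were also star strands, miR-30c-1* at -1.69 (-2.14 to -1.27) and miR-26b* at -1.59 (-2.92 to -0.44), and all 3 intervals overlapped. Among all 68 tested star entries, 10 were at least 2-fold lower and 3 higher, with a median of -0.21. The other star arms of the clusters were within 2-fold, miR-24-2* at -0.30 (-0.54 to -0.06) and miR-27b* at -0.13 (-0.78 to 0.50). Reads of miR-27a* in cells without doxycycline stood at the same level or above, in libraries of lower depth. With those reads subtracted, without adjustment for depth, no nuclear and 7.67 Total mean reads remained. The fold could then not be computed. The nuclear value was also low without doxycycline, at a log2 fold of -1.50 (-1.75 to -1.26), or -0.99 without scaling.

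**Figure D3:**
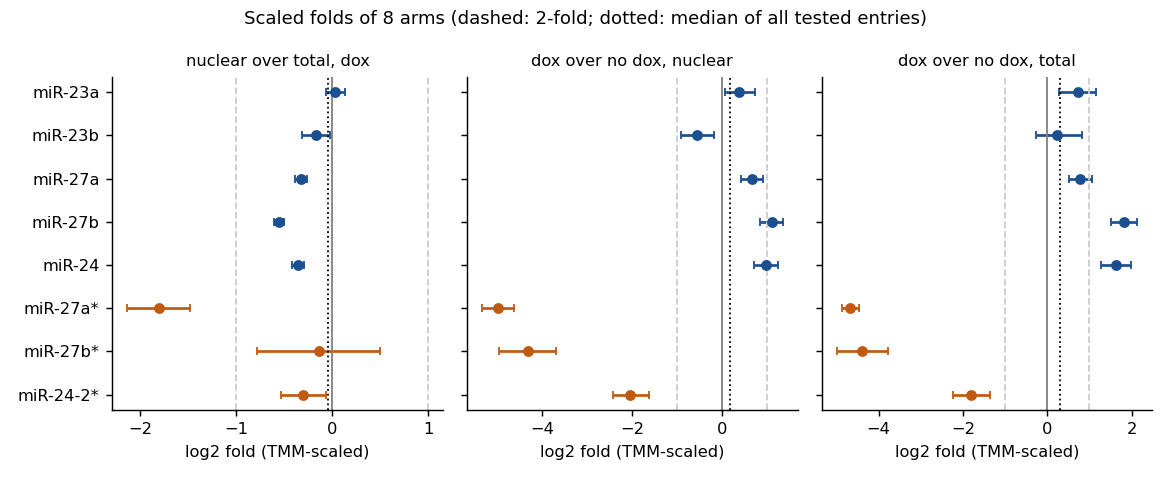
Log2 folds from TMM-scaled means with 95% counting intervals for the 8 tested arms, unstarred in blue and star arms in orange, nuclear over Total with doxycycline (left) and doxycycline over none in the nuclear (middle) and Total fraction (right). The star arms sit at -1.82 or below in both doxycycline panels, and miR-27a* alone is past 2-fold in the left one.

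The second question was which arms were recovered more with the induced AGO2 than without induction. A ratio of reads needs no scaling but also holds the difference in depth, so each was set beside the median ratio of all tested entries. In the nuclear fraction that median was 16.1 over 371 entries. miR-27b had 30.7 times (25.8 to 36.5) the reads with doxycycline, miR-24 28.2 times (23.4 to 34.1), miR-27a 22.6 times (19.2 to 27.01) and miR-23a 18.6 times (15.0 to 23.6). miR-23b, at 9.66 times (7.54 to 12.7), was the only unstarred arm below the median of all tested entries. Among all unstarred entries the median was 19.8, within the intervals of miR-27a and miR-23a, and miR-23a was below it too.

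In scaled terms 1 of the 8 arms was at least 2-fold higher and 3 lower in the nuclear fraction, against 34.2% and 32.6% (66.8% in either direction) of all tested entries. The higher was miR-27b, with a log2 fold of 1.11 (0.86 to 1.36), and the lower were the 3 star arms. The call of miR-27b rests on the scaling, which moved its fold between 0.06 and 4.94. miR-24 was at 0.99 (0.72 to 1.26) and miR-27a at 0.67 (0.43 to 0.93), miR-23a at 0.39 (0.08 to 0.73) and miR-23b at -0.56 (-0.92 to -0.16). Each of these 4 took both signs across the scalings tried, so only their order relative to each other is free of that choice. The median over all tested entries was 0.18, and went from -0.87 by library totals without miR-805 to 4.01 with no scaling. Those 2 choices gave 60 entries higher and 171 lower, and 301 higher and 15 lower, in place of 127 and 121.

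In the Total fraction the median read ratio was 33.2 over 359 entries. miR-27b had 94.7 times (76.7 to 118) the reads with doxycycline and miR-24 83.0 times (65.2 to 107). miR-27a had 46.1 times (38.4 to 55.8), miR-23a 44.3 times (32.7 to 60.1) and miR-23b 31.5 times (22.3 to 47.8). The unstarred arms therefore stood in the same order as in the nuclear fraction, with miR-27b and miR-24 above the other 3. The median of all unstarred entries was 42.8, within the intervals of miR-27a, miR-23a and miR-23b.

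In scaled terms 2 of the 8 arms were at least 2-fold higher and 3 lower, against 35.1% and 29.5% (64.6% in either direction) of all tested entries. Library totals without miR-805 gave 70 entries higher and 143 lower in place of 126 and 106, and no scaling 330 and 3. The scaled log2 fold of miR-27b was 1.82 (1.51 to 2.14) and that of miR-24 1.62 (1.28 to 1.99), and both stayed above 0 under every scaling, though within 2-fold by library totals without miR-805. miR-27a at 0.78 (0.51 to 1.05), miR-23a at 0.72 (0.28 to 1.16) and miR-23b at 0.23 (-0.27 to 0.83) were within 2-fold and took both signs across scalings. The doxycycline fold was larger in the Total than in the nuclear fraction by 0.70 (0.31 to 1.10) for miR-27b, 0.63 (0.20 to 1.07) for miR-24 and 0.79 (0.15 to 1.42) for miR-23b. For miR-27a the difference was 0.11 (-0.25 to 0.46) and for miR-23a 0.33 (-0.20 to 0.86), within counting error. They depend on the scaling: by library totals they were 0.018 (-0.37 to 0.41) for miR-27b, -0.05 (-0.49 to 0.39) for miR-24 and 0.10 (-0.54 to 0.73) for miR-23b, while miR-27a turned to -0.58 (-0.94 to -0.22). For miR-27b and miR-24, library totals was the only setting tried whose interval included 0. No difference between the fractions in the response of an arm held under every setting, so none is taken as shown. The differences are also not independent of the comparison between fractions, which uses the same columns with doxycycline.

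The star arms stood apart in both fractions. In reads, miR-27a* had 0.452 times (0.351 to 0.579) its nuclear level without doxycycline and 1.06 times (0.921 to 1.21) its Total level. miR-27b* had 0.712 times (0.454 to 1.11) and 1.29 times (0.843 to 1.97). Of all tested entries, 41 of 371 nuclear and 12 of 359 Total entries had no more reads with doxycycline than without it, and the first group included both arms. miR-24-2* had 3.47 times (2.66 to 4.65) and 7.63 times (5.69 to 10.4) its reads without doxycycline, between the miR-27 star arms and the unstarred arms.

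In scaled terms miR-27a* was at -4.97 (-5.34 to -4.62) in the nuclear fraction and -4.67 (-4.87 to -4.48) in the Total one, miR-27b* at -4.32 and -4.39, and miR-24-2* at -2.04 and -1.82. All 3 turned positive in the Total fraction when no scaling was applied, as did miR-24-2* in the nuclear fraction. With no minimum count miR-24-2* was at -0.37 (-0.75 to 0.06) and -0.34 (-0.76 to 0.11), within 2-fold in both fractions, while both miR-27 star arms stayed at least 2-fold lower. Star entries as a whole were also low: a drop of 2-fold or more was found for 45 of the 64 tested nuclear entries and 48 of the 69 tested Total entries, with medians of -2.31 and -2.57. Low scaled folds are therefore common to star entries in this table, and the clusters' star arms are read against that. Among those star entries, 5 nuclear and 6 Total ones lay below miR-27a*. miR-27b* was also below both medians, while miR-24-2* was above them.

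The share of the star arm among the reads of both arms of a hairpin needs no scaling between groups. The arms of Mir27a are shown in capitals within their hairpin, miR-27a* first and miR-27a second.
Mir27a: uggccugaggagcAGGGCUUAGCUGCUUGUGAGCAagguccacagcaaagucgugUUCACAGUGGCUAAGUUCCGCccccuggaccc
With doxycycline, miR-27a* made up 2.82% of the reads of this hairpin in the nuclear fraction and 7.48% in the Total one. Without doxycycline it made up 59.2% and 77.9%, so that the arm named the star outnumbered the other. The ratio of star to unstarred arm was 0.0291 (0.0235 to 0.0357) and 0.0809 (0.0732 to 0.0891) with doxycycline, and 1.45 (1.17 to 1.82) and 3.53 (2.87 to 4.37) without it.

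The other hairpins moved the same way without crossing over. miR-27b* made up 0.869% and 0.651% of its hairpin's reads with doxycycline and 27.4% and 32.6% without it. Set against all reads of miR-24, miR-24-2* had 6.79% and 6.54% with and 37.2% and 43.2% without doxycycline, and miR-24-1* 0.866% and 0.358% with and 16.9% and 9.46% without. In all 4 star arms the share was higher without doxycycline.

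This change was shared with most of the table. Of 65 other pairs of star and unstarred arms with at least 10 mean reads in both nuclear groups, 59 had a lower star share with doxycycline, with medians of 3.797% with and 40.5% without it. In the Total fraction 54 of 59 did, with medians of 4.43% and 41.1%. A star arm above its partner was seen in 27 of 66 nuclear and 27 of 60 Total pairs without doxycycline, and in 3 of 96 in each fraction with it. Within that background miR-27a* was high in the Total fraction without doxycycline, where 53 of 60 other pairs had a lower star share. There miR-24-1* was low, with 4 of 60 below it. That value rests on 7 reads of miR-24-1* over the group. Its share is also lowered by being set against miR-24 reads from both hairpins.

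**Figure D4:**
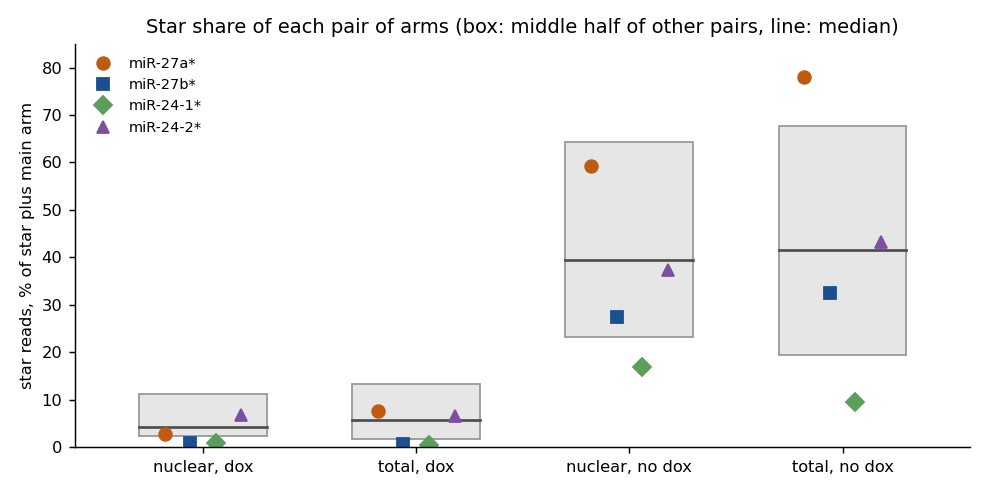
Star reads as a percentage of star plus unstarred reads for the 4 star arms in each group; the boxes run from the lower to the upper quartile of the other pairs in the table, with lines at their medians. All 4 arms are below 8% with doxycycline, and miR-27a* reaches 59.2% and 77.9% without it.

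Between the fractions the star to unstarred ratio of Mir27a differed beyond counting error, which needs no scaling either. Nuclear over Total, its log2 ratio was -1.48 (-1.80 to -1.15) with doxycycline, where 9 of 92 other pairs were lower and their median was -0.04. Without doxycycline it was -1.28 (-1.71 to -0.86), with 3 of 56 other pairs lower. The same measure was 0.42 (-0.19 to 1.02) for miR-27b* and 0.06 (-0.18 to 0.30) for miR-24-2* with doxycycline. Only miR-24-1*, at 28.5 nuclear and 20 Total reads over the 3 libraries, had a positive value whose interval left out 0, 1.28 (0.45 to 2.11).

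The paralogues of the 2 clusters were then set against each other within each group. miR-27b, from chromosome 13, had 1.29 times (1.23 to 1.35) the reads of miR-27a among nuclear and 1.51 times (1.46 to 1.57) among Total reads with doxycycline. For miR-23 the order was the other way, with miR-23a, from chromosome 8, at 2.42 times (2.21 to 2.66) and 2.10 times (1.94 to 2.27) the reads of miR-23b. Neither cluster was thus above the other in both of its unstarred arms. Without doxycycline miR-27b had 0.952 times (0.753 to 1.22) and 0.737 times (0.552 to 0.981) the reads of miR-27a, so that in the Total fraction the order of the pair was turned beyond counting error.

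Among star arms, those of chromosome 8 had more reads in every group. miR-27a* had 2.57 times (1.74 to 3.86) the reads of miR-27b* among nuclear and 8.15 times (6.13 to 11.02) among Total reads with doxycycline, and 4.04 and 9.93 times without it. miR-24-2* had 8.33 times (5.73 to 13.1) and 19.45 times (12.4 to 32.2) the reads of miR-24-1* with doxycycline, and 2.91 and 7.29 times without it. Since miR-24 itself cannot be assigned to a cluster, these star arms are the only entries that separate Mir24-1 from Mir24-2.

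**Figure D5:**
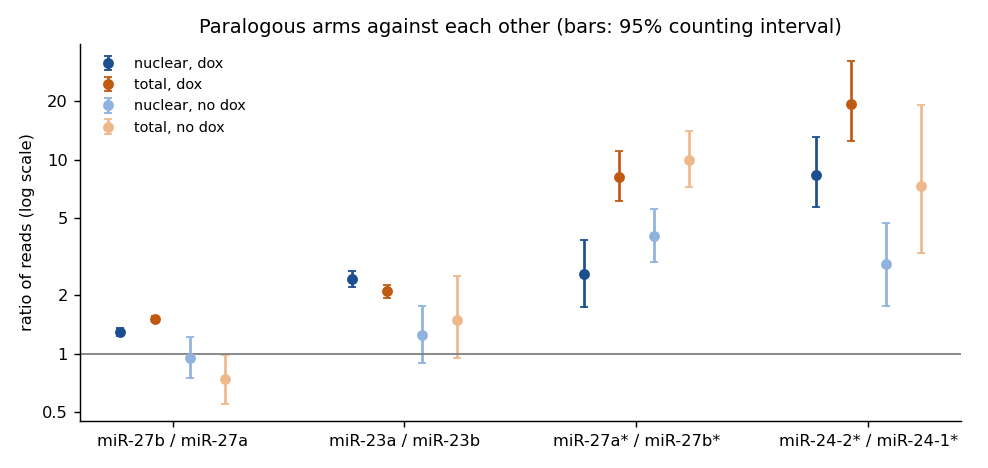
Ratio of reads of paralogous arms (log scale) in each of the 4 groups with 95% counting intervals. miR-27b exceeds miR-27a with doxycycline only, whereas the chromosome 8 star arms exceed those of chromosome 13 in every group.

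Hairpins of 1 cluster also differed from each other. On chromosome 8, miR-27a had 2.10 times (1.98 to 2.24) the reads of miR-23a among nuclear and 2.70 times (2.56 to 2.84) among Total reads with doxycycline. On chromosome 13, miR-27b had 6.57 times (6.05 to 7.16) and 8.57 times (8.01 to 9.17) the reads of miR-23b. In both clusters and both fractions miR-27 was above miR-23, by more on chromosome 13.

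Some of the deposited values held parts of reads. Multiplied by the 3 libraries, the means of miR-23a and miR-23b were both not whole in the same 3 groups, for example 83.5 and 66.5 reads in the nuclear fraction without doxycycline, and their sum was whole in all 4 groups. For miR-24-1* and miR-24-2* this held in 2 groups, and for miR-27a and miR-27b in 1, with 144.5 and 137.5 reads. miR-27a* and miR-27b* were whole in every group. miR-24, a single entry, was also not whole in the nuclear fraction without doxycycline, at 115.5 reads. Parts of reads therefore do not by themselves show sharing between paralogues. How reads that match both paralogues were counted is not given in the sources used here, so the ratios for miR-23, for miR-27a against miR-27b and for the miR-24 star arms are less certain than their counting intervals.

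The uninduced fractions describe what was read from cells that were not given doxycycline. None of the 8 tested arms was at least 2-fold higher in the nuclear fraction and 1 was lower, miR-27a*, against 23.8% and 19.6% (43.4% in either direction) of 189 tested entries. The unstarred arms ranged from -0.22 (-0.58 to 0.14) for miR-27a to 0.62 (-0.02 to 1.30) for miR-23b, and all 5 intervals included 0. These calls depend on the scaling. Without any, miR-23b was the arm past 2-fold, higher at 1.12 (0.49 to 1.81), and miR-27a* was at -0.99 (-1.24 to -0.75). By library totals miR-27a* was at -2.17, and the intervals of miR-27a at -0.89 (-1.25 to -0.53) and miR-27b at -0.52 (-0.91 to -0.11) no longer included 0. In the TMM-scaled values miR-24-2* was at -0.08 and miR-27b* at -0.20, with intervals that also included 0, though by library totals neither did. What these reads came from was not tested.

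Other entries give a scale for the clusters. The profile of miR-27b, the most abundant arm, was compared with 365 entries over the 4 groups. These had reads in all 4 groups and a mean of at least 10 in at least 1. The measure was the distance between scaled log2 levels centred on their means. Outside the clusters miR-541 was nearest at 0.19, before miR-466g at 0.25 and miR-182 at 0.31. Without doxycycline miR-466g had only 1.17 nuclear and 0.733 Total mean reads, so its place is uncertain. miR-24 ranked second of all at 0.23, whereas miR-27a ranked 35 at 0.80, miR-23a 67 and miR-23b 166. miR-27b was thus closer to miR-24 than to its own paralogue, and over 4 points such a distance is a description only.

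miR-128, whose first bases repeat bases of miR-27, had far fewer reads. Its sequence is shown with its own seed in capitals.
miR-128: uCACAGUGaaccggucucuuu
It shares a run of 8 bases with miR-27a, UCACAGUG, which starts at base 2 of miR-27a and base 1 of miR-128. It had 164 nuclear and 239 Total mean reads with doxycycline and 3 and 1.33 without it. Its log2 fold between the fractions was -0.13, and its scaled log2 fold with doxycycline was 1.94 in the nuclear fraction and 2.74 in the Total one.

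Among comparable miRNAs, miR-21 had 2353.7 nuclear and 2622.7 Total mean reads with doxycycline, the same range as miR-27b, and its star arm miR-21* had 55.3 and 72.7 against 135.8 and 76.3 without doxycycline. miR-221 and miR-222 together took 0.0493% and 0.0620% of reads with doxycycline, and the 9 entries of miR-99, miR-100 and miR-125 took 0.0876% and 0.102%, far below the 1.11% and 1.43% of the clusters. Between the fractions all tested arms of these 3 groups lay within 2-fold, with medians of 0.14, -0.27 and -0.25. Other miRNAs known from vascular, blood and muscle differentiation had 27 entries, of which 13 were tested between the fractions. None was at least 2-fold higher and 1 was lower, against 10.3% and 3.97% of all tested entries, with a median of -0.05. With doxycycline against none, 3 of 13 were higher and 4 lower in the nuclear fraction (median 0.31), against 34.2% and 32.6% of all tested entries. In the Total fraction 3 of 13 were higher and 3 lower (median 0.22), against 35.1% and 29.5%. The most abundant of the 27 entries were miR-143, a smooth muscle miRNA, with 291.3 and 529.3 mean reads with doxycycline, and miR-181d with 350.3 and 419.1. Each was below miR-23a.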

How the data were processed

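The authors deposited estimated counts (expected counts, not scaled), averaged over each group of 3 libraries, per the file headers and the values: multiplied by 3, between 78.4% and 91.4% of values in a column were whole to within 1e-06. Tools listed in the submitters' processing notes are TopHat and bcl2fastq 2.17.1, with mm10 as the build. How reads were counted, including those matching more than 1 miRNA, is not given in these sources. Entries with a mean of at least 10 in at least 1 group (385) gave TMM factors over the 4 groups (edgeR 4.0.16, R 4.3.3). Each log2 fold was computed for entries with a mean of at least 10 in at least 1 compared group, with a Clopper-Pearson interval on reads over the group (mean times 3, rounded for the interval). A fold of at least 2 is a rule of size, not a test. Differences between folds and between ratios have normal-approximation intervals. Shares have Wilson intervals. PCR reads without molecular identifiers are not independent molecules, so intervals cover counting error only. No test across replicates was possible on group means. The procedure was tried on simulated counts, with counting error only, for 1 pair of groups at a time. These did not copy the difference in composition between groups with and without doxycycline. They therefore say nothing on the choice of scaling there. Every member was named; the 3 entries most like the most abundant member and the comparison lists followed a written rule. Members and lists were chosen with earlier results of these data known. Alternatives were other scalings, other minimum counts, subtraction of the reads without doxycycline (not adjusted for depth), and totals without miR-805. Computation used SciPy 1.17.1, pandas 2.3.3 and numpy 2.4.6 under Python 3.11.15, and plots matplotlib 3.10.9.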

Additional observations from a re-analysis of the deposited data

How the results depend on the processing

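No paired analysis was possible because the table holds 1 mean per group, and for the same reason no replicate could be left out. The number of arms at least 2-fold apart between the fractions with doxycycline was 1 (0 higher and 1 lower, beside 39 and 15 of 378 entries). It was 0 of 6 once reads seen without doxycycline were subtracted (beside 15 higher and 31 lower of 337). That subtraction was not adjusted for depth, and miR-27a* and miR-27b* could not be tested after it. For doxycycline against none it was 4 in the nuclear fraction (1 higher, 3 lower), but 7 without scaling (6 and 1, beside 301 and 15 of 371 entries), 8 without a minimum count (5 and 3, beside 247 and 301 of 682) and 2 with a minimum of 30 (0 and 2, beside 92 and 71 of 276). By library totals it was 6 (3 and 3, beside 151 and 107). In the Total fraction it was 5 (2 and 3), but 3 by library totals without miR-805 (0 and 3, beside 70 and 143 of 359) and 8 without a minimum count (5 and 3, beside 236 and 282 of 624). Without scaling it was 6, all higher, beside 330 higher and 3 lower of 359 entries. Without a minimum count the scaling factors move too, since many entries with few reads then enter them. Between the fractions without doxycycline it was 1 (0 higher and 1 lower, beside 45 and 37 of 189 entries). With no minimum count it was 2 (1 and 1, beside 164 and 122 of 658). It stayed 1 without scaling (beside 59 higher and 15 lower of 189), but the arm was then miR-23b at 1.12 and not miR-27a* at -0.99. Without scaling, log2 folds for doxycycline turned to 1.79 for miR-24-2* in the nuclear fraction, and in the Total fraction to 0.077 for miR-27a*, 2.93 for miR-24-2* and 0.36 for miR-27b*. The share of the 9 arms, with miR-805 (63.7% and 33.3% of nuclear and Total reads without doxycycline) left out, went to 1.15% in the nuclear fraction with doxycycline and to 2.28% and 2.69% in the nuclear and Total fraction without it. Arm and paralogue ratios need no scaling. The difference in doxycycline folds between fractions was recomputed under each setting after the data were seen. For miR-27b it ranged from 0.018 to 1.62. Depth limits the groups without doxycycline most.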
